A study of Mus musculus with 44 samples.

Results

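Mice with mild steatohepatitis on a choline-deficient diet and on a sugar, palmitate and cholesterol diet were compared for how far the RNA of their whole-liver nuclei had moved from that of low-fat controls. The measurement is a difference of differences. The log2 change of each gene in CDAHFD mild livers over CDAHFD control livers was taken, and the log2 change in FPC mild livers over FPC control livers was subtracted from it. This quantity is called the diet difference below, and a positive value means that the CDAHFD change was above the FPC change. It rests on 16 of the 44 libraries of the study, 4 in each of 4 groups, and 14413 of 20105 gene identifiers carried enough reads to be tested.

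The mice were males of the HEP-INTACT strain, in which hepatocyte nuclei carry a tag that allows them to be captured. The CDAHFD mild group ate the CDAHFD for 7 weeks, a diet high in fat that lacks choline and holds defined L-amino acids, and the CDAHFD control group ate low-fat diet for the same 7 weeks. The FPC mild group ate the fructose, palmitate and cholesterol diet (FPC) for 20 weeks, and the FPC control group ate low-fat diet for the same 20 weeks. Mild and advanced livers were told apart by histology and were not assigned at random, and a mild liver had steatosis and inflammation without significant fibrosis. All 4 groups carry the tag transgene, and the sources used here give neither the promoter that drives it nor the ages of the mice. Every mouse gave a whole-liver library, described here, and a library of captured hepatocyte nuclei. The mice of a group are called 1 to 4 in rising order of their animal numbers, and values given for each liver keep that order. Each diet has its own control group, duration and study, so what the diet did and what the study or its length did cannot be told apart.

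As background, both diets fill hepatocytes with triglyceride by different routes. Without choline the liver cannot make enough phosphatidylcholine to coat and export very-low-density lipoprotein (VLDL), whereas fructose and palmitate supply carbon and fatty acid and the added cholesterol loads the liver with sterol. Sterol-sensing transcription factors of the SREBP family switch on cholesterol synthesis when sterol is scarce, and the oxysterol receptor LXR switches on sterol export and fatty acid synthesis when it is plentiful. As fat accumulates, resident Kupffer cells are joined by macrophages from blood monocytes, many of which take up lipid and express Gpnmb, Trem2 and Itgax.

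The 16 whole-liver libraries held 14278783 to 33063251 counted reads. Replicate libraries of a group differed by more than counting noise, with chi-square values of 19.96 to 231.24 per degree of freedom between pairs. On the first principal component of log2(CPM + 1), which held 64.89% of the variance, CDAHFD mild livers lay at 28.675 to 41.811 and CDAHFD control livers at -61.995 to -54.939. FPC mild livers lay at 3.922 to 10.591 and FPC control livers at -69.37 to -61.92. The 4 CDAHFD mild livers therefore lay farther along the axis that separates diseased from control livers than the 4 FPC mild livers did. Summed hepatocyte markers reached 9536 to 11931 counts-per-million (CPM) in CDAHFD mild livers and 23987 to 33832 CPM in CDAHFD control livers, against 10380.3 to 13584 CPM in FPC mild livers and 23502 to 34469 CPM in FPC control livers. Hepatocyte transcripts were thus abundant in every library and lower in both mild groups. In bulk tissue, fewer cells of a type and less RNA per cell cannot be told apart. The whole-liver library of CDAHFD control mouse 1 deviated from its group as the hepatocyte library of mouse 2 did (r = 0.747 across genes, which are not independent), and that of mouse 2 as the hepatocyte library of mouse 1 did (r = 0.847). Between its own 2 libraries the correlation was -0.215 for mouse 1 and -0.29 for mouse 2, against 0.429 to 0.87 in the other 14 mice. Both mice are CDAHFD controls, so their group means do not depend on which number is right.

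The CDAHFD change was above the FPC change for 388 genes and below it for 334 genes (edgeR quasi-likelihood test, adjusted p under 0.05 over all genes tested). These are 2.69% and 2.32% of the genes tested, and they set the background for every list below. The median diet difference over all tested genes was -0.035 log2. Each diet by itself moved far more genes: the CDAHFD raised 4074 genes (28.3%) and lowered 3838 (26.6%), and the FPC diet raised 3564 (24.7%) and lowered 2572 (17.8%). Of the 388 genes with a positive diet difference, 205 rose under both diets, 107 rose under the CDAHFD without a call under FPC, 53 fell under FPC without a call under the CDAHFD, 17 rose under the CDAHFD and fell under FPC, and 6 fell under both. Of the 334 genes with a negative diet difference, 162 fell under the CDAHFD without a call under FPC, 62 fell under both, 55 rose under FPC without a call under the CDAHFD, 33 fell under the CDAHFD and rose under FPC, and 22 rose under both. Leaving out single libraries moved these counts. The positive count was 243 without CDAHFD mild mouse 3 and 255 without FPC mild mouse 3. The negative count was 180 without CDAHFD mild mouse 3, 221 without CDAHFD mild mouse 1, 169 without FPC mild mouse 3, and 216, 218 and 209 without FPC control mice 1, 2 and 3.

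**Figure D1:**
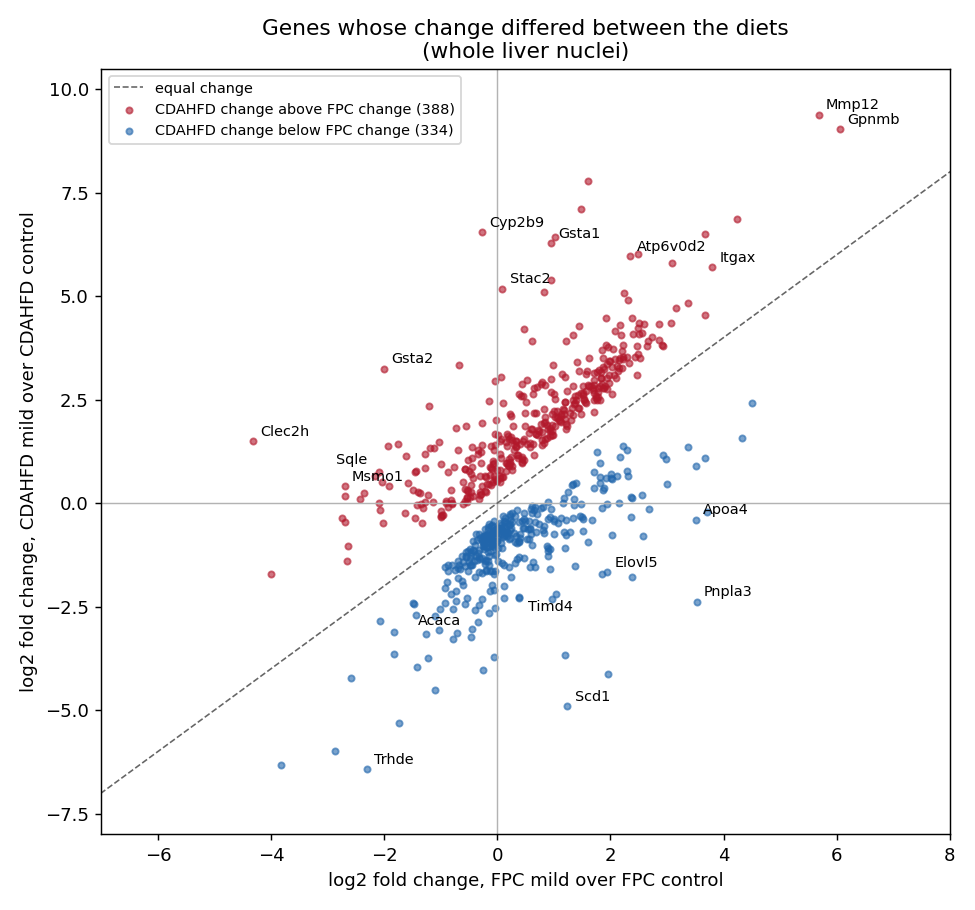
Genes with a called diet difference in whole-liver nuclei, with the log2 change of CDAHFD mild over CDAHFD control livers on the vertical axis and of FPC mild over FPC control livers on the horizontal axis; the dashed line marks equal change. The 388 red genes lie above the line and the 334 blue genes below it, with the macrophage genes Gpnmb and Mmp12 raised by both diets and Scd1 and Pnpla3 lowered by the CDAHFD and raised by FPC.

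A diet difference can come from the diseased livers or from the control livers, and both sides were measured. Between the control groups themselves, 162 genes (1.12%) were higher and 287 (1.99%) lower in CDAHFD control than in FPC control livers. Between the mild groups, 1012 genes (7.02%) were higher and 1001 (6.95%) lower in CDAHFD mild than in FPC mild livers. Of the 722 genes with a diet difference, 487 differed between the mild groups and had no call between the controls, 118 differed between the controls and had no call between the mild groups, 27 differed on both sides and 90 on neither. The count of genes higher in CDAHFD control than in FPC control livers was 96 without CDAHFD control mouse 4, and 82, 96 and 85 without FPC control mice 1, 2 and 3. The count of genes lower in CDAHFD control livers was 183 without FPC control mouse 1. The count of genes lower in CDAHFD mild than in FPC mild livers was 603 without CDAHFD mild mouse 3 and 657 without FPC mild mouse 3.

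Among 45 gene lists, fatty acid synthesis and LXR targets leaned to a lower CDAHFD change, and cholesterol synthesis, NRF2 targets and recruited macrophage markers leaned to a higher one. Of 25 cholesterol synthesis genes and SREBP2 targets, 12 had a positive diet difference and 0 a negative one, with a median of 0.972 log2 over the list. Of 21 genes of fatty acid and triglyceride synthesis, 0 had a positive and 8 a negative diet difference, with a median of -1.686. Of 17 recruited macrophage markers, 9 had a positive and 0 a negative diet difference, with a median of 1.241. These stand beside 2.69% positive and 2.32% negative calls and the median of -0.035 over all genes. Lists of urea cycle enzymes, endothelial cells and T and NK cells held 0 calls by edgeR and 0 by DESeq2, and 3 of 22, 2 of 19 and 3 of 20 members had an unadjusted p under 0.05.

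The called genes of fatty acid and triglyceride synthesis had lower changes under the CDAHFD than under FPC, and the difference lay mainly between the mild groups. The stearoyl-CoA desaturase gene Scd1 (mm10, chr19:44394450-44407709), which makes monounsaturated fatty acids for triglyceride, had 11.6, 8.36, 11.2 and 13.2 CPM in CDAHFD mild livers and 131, 736, 161 and 295 CPM in CDAHFD control livers. It had 949, 1079.5, 1156 and 937 CPM in FPC mild livers and 505, 370.4, 316 and 554 CPM in FPC control livers. All 4 CDAHFD mild livers were below every other library, all 4 FPC mild livers were above all 4 FPC control livers, and the 2 control groups overlapped. Its diet difference was -6.14 ± 0.68 log2 (SE; adjusted p = 7.5e-05), made of a CDAHFD change of -4.90 (adjusted p = 2.91e-07) and an FPC change of 1.24 (adjusted p = 0.0319). Scd3, a near-identical copy beside it whose reads may be shared, had a diet difference of -6.09 ± 0.79 (adjusted p = 0.000144).

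Pnpla3, which encodes a lipid droplet protein and whose gene is driven by both SREBP1c and carbohydrate, showed the same split from lower levels. It had 2.17, 3.01, 2.72 and 3.46 CPM in CDAHFD mild livers and 9.96, 30.6, 5.78 and 12.7 CPM in CDAHFD control livers. It had 75.5, 77.4, 89.6 and 101 CPM in FPC mild livers and 12.9, 9.24, 3.65 and 3.85 CPM in FPC control livers. Neither diet's mild and control livers overlapped, and the diet difference was -5.91 ± 0.82 (adjusted p = 0.000499). Elovl5, an elongase of polyunsaturated fatty acids, had 101, 154, 111 and 121 CPM in CDAHFD mild livers and 206, 532, 483 and 324 CPM in CDAHFD control livers. It had 779, 941, 980.0 and 1068 CPM in FPC mild livers and 220.4, 328, 111 and 322 CPM in FPC control livers. It fell by 1.67 log2 under the CDAHFD (adjusted p = 0.00156) and rose by 1.94 log2 under FPC (adjusted p = 0.000648), and its diet difference was -3.61 ± 0.57 (adjusted p = 0.00106).

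Acaca, which encodes the acetyl-CoA carboxylase that commits carbon to fatty acid synthesis, had 243, 232, 211 and 288 CPM in CDAHFD mild livers and 1382, 1156, 820.4 and 2483 CPM in CDAHFD control livers. It had 991, 595, 575 and 640.4 CPM in FPC mild livers and 953, 942, 805 and 971 CPM in FPC control livers. The CDAHFD mild livers lay below all others, while FPC mild and control livers overlapped. The diet difference was -2.19 ± 0.37 (adjusted p = 0.00177). The other called members were Agpat2, Me1, Elovl6 and Fasn, and the 8 called members ranged from -6.14 to -1.69. In all, 19 of the 21 tested members lay below 0. The fatty acid synthase gene Fasn had 35.8, 63.9, 57.0 and 63.2 CPM in CDAHFD mild livers and 346, 193, 336 and 933 CPM in CDAHFD control livers, and 208, 453, 298 and 398 CPM in FPC mild livers and 334, 526, 459 and 539 CPM in FPC control livers. Its diet difference of -2.59 ± 0.67 passed (adjusted p = 0.0347), and it passed in 6 of 16 fits that left out 1 library each, those without CDAHFD mild mouse 2, CDAHFD control mice 1, 2 and 3, FPC mild mouse 1 and FPC control mouse 4. The transcription factor gene Srebf1, which drives this pathway, had a diet difference of -1.88 ± 0.54 with an adjusted p of 0.0501. Under the CDAHFD 1 of 21 members rose and 16 fell, under FPC 5 rose and 2 fell, and 18 were lower in CDAHFD mild than in FPC mild livers, whereas 3 differed between the control groups.

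Of 12 LXR targets, 5 had a negative diet difference and 0 a positive one (median -0.751). Beside Scd1 and Pnpla3 these were the sterol exporters Abca1, Abcg5 and Abcg8. Abca1, which loads cholesterol onto high-density lipoprotein, had 647, 637, 749 and 740.0 CPM in CDAHFD mild livers and 1113, 1139, 910.4 and 1418 CPM in CDAHFD control livers. It had 1001, 951, 1025 and 976 CPM in FPC mild livers and 809, 779, 957 and 939 CPM in FPC control livers. CDAHFD mild livers were below the other groups, FPC mild and control livers overlapped, and the diet difference was -0.91 ± 0.17 (adjusted p = 0.00296). Abcg8, a partner of the transporter that secretes sterol into bile, had 52.5, 61.2, 44.1 and 60.7 CPM in CDAHFD mild livers and 129, 79.2, 134 and 212 CPM in CDAHFD control livers. It had 70.5, 171, 150.4 and 145 CPM in FPC mild livers and 73.1, 101, 126 and 121 CPM in FPC control livers. Its diet difference was -1.69 ± 0.40 (adjusted p = 0.0179).

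Genes of VLDL assembly also had lower CDAHFD changes where they were called. Of 15 tested, 3 were negative (Mttp, Apoa4 and Sar1b) and 0 positive, with a median of -0.749. Mttp, the transfer protein that loads triglyceride onto nascent VLDL, had 97.9, 88.5, 73.2 and 88.8 CPM in CDAHFD mild livers and 233, 268, 269 and 337 CPM in CDAHFD control livers. It had 196, 169, 177 and 164 CPM in FPC mild livers and 214, 263, 167 and 235 CPM in FPC control livers. It fell by 1.67 log2 under the CDAHFD and had no call under FPC (-0.32, adjusted p = 0.108), which gave a diet difference of -1.35 ± 0.22 (adjusted p = 0.0013). Apoa4, an apolipoprotein gene that responds to hepatic fat, had 6.89, 13.9, 11.9 and 9.50 CPM in CDAHFD mild livers and 6.91, 30.0, 11.2 and 7.60 CPM in CDAHFD control livers. It had 49.0, 53.1, 45.5 and 47.1 CPM in FPC mild livers and 4.78, 5.89, 2.43 and 3.92 CPM in FPC control livers. The FPC mild livers stood above all others, and the diet difference was -3.91 ± 0.68 (adjusted p = 0.00254). The call of Sar1b, a small GTPase of vesicle budding, was lost without CDAHFD mild mouse 3, FPC control mouse 1 or 3, or FPC mild mouse 3.

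**Figure D2:**
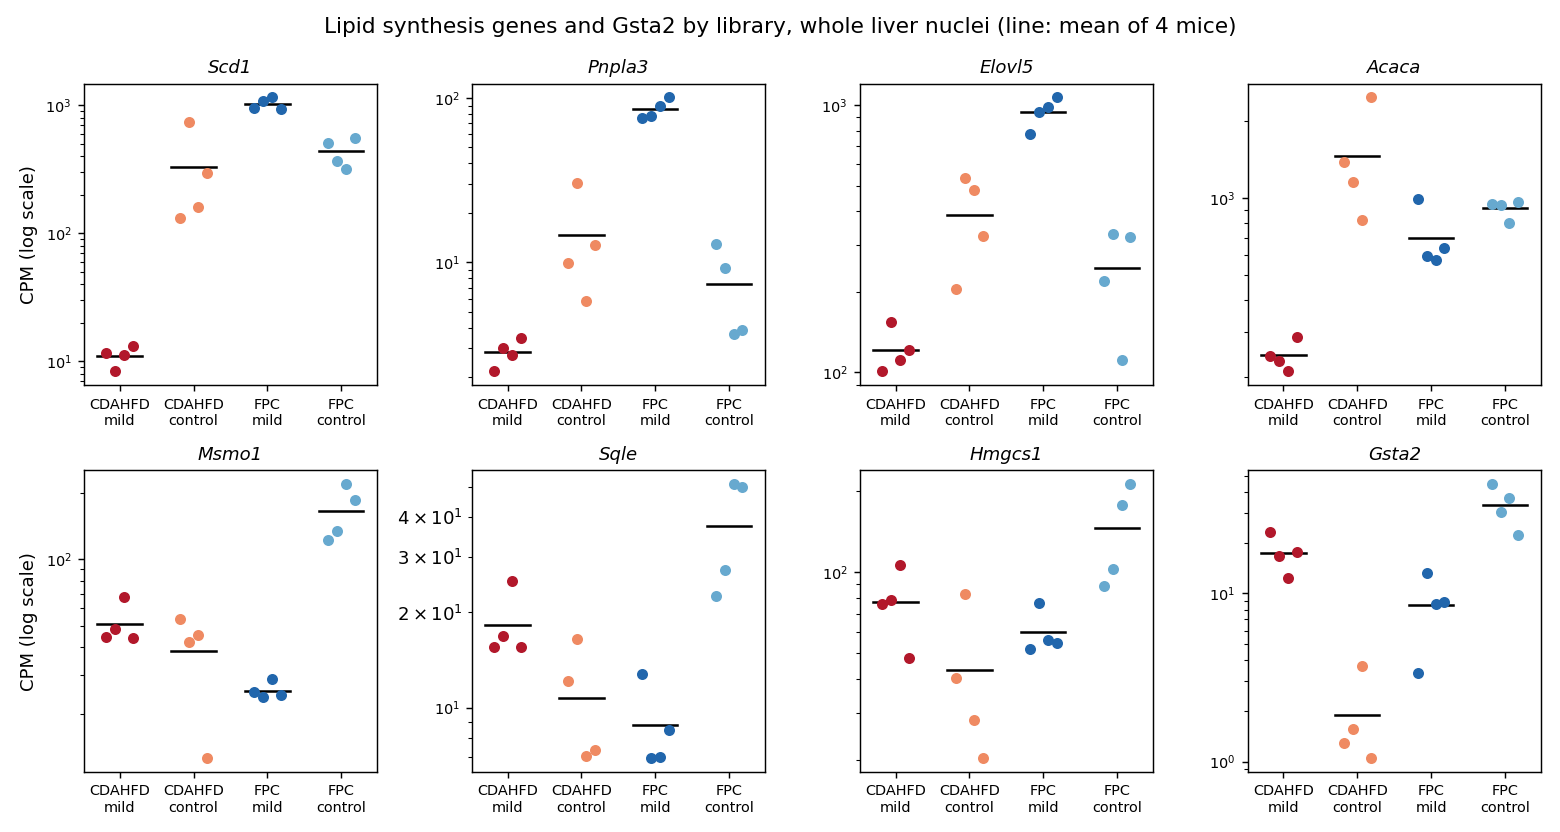
CPM on a log axis in each whole-liver library of the 4 groups, for 7 lipid synthesis genes and Gsta2; points are mice and lines are means of 4. Scd1, Pnpla3, Elovl5 and Acaca have their lowest means in CDAHFD mild livers, whereas the means of Msmo1, Sqle and Hmgcs1 are highest in FPC control livers.

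Cholesterol synthesis differed between the diets through FPC and through the controls. All 25 tested members of the list fell under FPC (median -1.309), 0 rose and 7 fell under the CDAHFD (median -0.043), and 20 were lower in CDAHFD control than in FPC control livers. In the mild groups 2 were higher and 4 lower in CDAHFD than in FPC livers. Summed over the list, the level was 1069.7 to 1347 CPM in CDAHFD mild livers and 924 to 1613 CPM in CDAHFD control livers, and 1218 to 1514 CPM in FPC mild livers and 2502 to 3860.2 CPM in FPC control livers. The CDAHFD control livers overlapped with both mild groups, and the FPC control livers stood above all 3. Promoter windows of a called gene at the pathway's entry and of the gene with the largest diet difference on the list are shown here, from 250 bases before to 50 after the transcript start (RefSeq, GRCm38.p6), because the pathway is switched through sterol regulatory elements in promoters. Capitals mark a match to TCACNCCAC on either strand.
Hmgcs1 (chr13:119690101-119690400, plus strand): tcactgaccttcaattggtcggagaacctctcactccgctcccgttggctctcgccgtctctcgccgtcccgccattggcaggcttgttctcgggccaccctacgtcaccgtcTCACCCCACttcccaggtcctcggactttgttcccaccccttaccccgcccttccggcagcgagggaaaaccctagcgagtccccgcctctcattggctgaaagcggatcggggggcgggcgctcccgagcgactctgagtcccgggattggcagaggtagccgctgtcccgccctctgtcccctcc
Msmo1 (chr8:64733529-64733828, minus strand): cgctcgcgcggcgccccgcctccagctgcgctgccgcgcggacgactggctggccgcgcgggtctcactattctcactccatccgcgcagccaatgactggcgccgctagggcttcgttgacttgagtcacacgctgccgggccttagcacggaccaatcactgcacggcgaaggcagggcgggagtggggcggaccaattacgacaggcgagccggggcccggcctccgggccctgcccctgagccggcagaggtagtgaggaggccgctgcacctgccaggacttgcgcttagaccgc
The match in the Hmgcs1 window begins 137 bases before the start, and the Msmo1 window held none. These letters were found in 1.24% of 32851 promoter windows and in 1 of the 17 list members with a window, and a match is a description of the letters and no evidence of binding. A gene counted if any of its windows matched.

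Msmo1, a sterol oxidase late in the pathway (chr8:64718145-64733578), had 44.4, 48.5, 67.3 and 44 CPM in CDAHFD mild livers and 53.9, 42.3, 45.4 and 12.6 CPM in CDAHFD control livers. It had 25.2, 23.7, 28.8 and 24.2 CPM in FPC mild livers and 122, 134, 219 and 186 CPM in FPC control livers. The FPC control livers were above every other library, and CDAHFD mild and control livers overlapped. The diet difference was 3.11 ± 0.43 (adjusted p = 0.000332), from an FPC change of -2.70 (adjusted p = 9.29e-07) and a CDAHFD change of 0.41 (adjusted p = 0.254). The control groups differed by -2.10 (adjusted p = 0.000409), CDAHFD minus FPC.

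Sqle, the squalene epoxidase gene, had 15.6, 16.9, 25.1 and 15.5 CPM in CDAHFD mild livers and 12.1, 16.5, 7.03 and 7.34 CPM in CDAHFD control livers. It had 12.8, 6.92, 6.98 and 8.52 CPM in FPC mild livers and 22.5, 27.2, 51.0 and 50.1 CPM in FPC control livers. Its diet difference was 2.85 ± 0.49 (adjusted p = 0.00204).

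Hmgcs1, the synthase at the pathway's entry, was chosen for its promoter after its values were seen. It had 76.1, 78.5, 106 and 48.0 CPM in CDAHFD mild livers and 40.5, 83.2, 28.2 and 20.3 CPM in CDAHFD control livers, and 51.7, 76.7, 55.9 and 54.7 CPM in FPC mild livers and 89.2, 103, 178 and 213 CPM in FPC control livers. Its diet difference was 2.13 ± 0.51 (adjusted p = 0.0215), with an adjusted p of 0.0516 when CDAHFD mild mouse 3 was left out. Other called members were Idi1, Fdft1, Mvd, Mvk, Nsdhl, Pmvk, Lss and Srebf2, and the 12 called members ranged from 0.82 to 3.11. Insig1, which encodes a protein that holds SREBP back when sterol is plentiful, had a diet difference of 0.23 ± 0.43 that did not pass (adjusted p = 0.813).

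A cluster of alpha-class glutathione S-transferase genes had positive diet differences and likewise differed between the controls. These enzymes couple glutathione to reactive lipids and are switched on by the stress sensor NRF2. Gsta2 (chr9:78331020-78347145) had 23.2, 16.7, 12.4 and 17.5 CPM in CDAHFD mild livers and 1.29, 1.56, 3.70 and 1.05 CPM in CDAHFD control livers. It had 3.37, 13.2, 8.61 and 8.85 CPM in FPC mild livers and 44.6, 30.3, 37.0 and 22.1 CPM in FPC control livers. It rose by 3.25 log2 under the CDAHFD and fell by 2.0 under FPC, and its diet difference was 5.25 ± 0.64 (adjusted p = 0.000117). The control livers did not overlap and differed by -4.19 log2 (adjusted p = 3.84e-05), whereas the mild livers overlapped. Gsta4 had 7.46, 5.58, 5.65 and 6.72 CPM in CDAHFD mild livers and 2.86, 1.84, 4.02 and 2.87 CPM in CDAHFD control livers. It had 5.14, 6.51, 4.99 and 3.70 CPM in FPC mild livers and 20.4, 13.7, 15.0 and 12.8 CPM in FPC control livers, and its diet difference was 2.76 ± 0.35 (adjusted p = 0.000117). Gsta1 (5.32 ± 0.81), Gm3776 (5.41 ± 0.92) and Gm10639 (4.01 ± 0.79) lie between Gsta4 and Gsta2 on chromosome 9 and were also called (adjusted p = 0.000799, 0.00191 and 0.00528). The genes Gsta1, Gsta2, Gm3776 and Gm10639 are close copies, so the split of reads among them is uncertain.

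Of 19 tested NRF2 targets, 6 had a positive and 0 a negative diet difference (median 0.623): Gsta1, Gsta2, Gsta4, Hmox1, Nqo1 and Txnrd1. Hmox1, which degrades haem, had 11.4, 20.6, 17.4 and 16.2 CPM in CDAHFD mild livers and 4.19, 2.93, 5.78 and 5.23 CPM in CDAHFD control livers, and 6.04, 8.75, 8.15 and 5.61 CPM in FPC mild livers and 4.21, 5.23, 5.92 and 4.66 CPM in FPC control livers. Its CDAHFD mild livers were above all others, its controls overlapped, and its diet difference was 1.36 ± 0.33 (adjusted p = 0.0202). Under the CDAHFD 12 members rose and 1 fell, and under FPC 6 rose and 5 fell.

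Xenobiotic cytochromes P450 leaned the same way, with 5 positive and 1 negative call of 25 tested (median 0.608). Under FPC 0 rose and 16 fell (median -1.175), and 8 were lower in CDAHFD control than in FPC control livers. The coumarin hydroxylase gene Cyp2a5, whose reads may be shared with its near-copy Cyp2a4, had 91.4, 78.5, 83.3 and 131 CPM in CDAHFD mild livers and 51.4, 25.8, 43.8 and 48.1 CPM in CDAHFD control livers. It had 73.4, 49.5, 75.1 and 65.2 CPM in FPC mild livers and 178, 216, 163 and 85.1 CPM in FPC control livers, and its diet difference was 2.47 ± 0.48 (adjusted p = 0.00522). Cyp3a11, the main drug-oxidising P450 of mouse liver, had 96.5, 85.3, 46.9 and 110.1 CPM in CDAHFD mild livers and 37.8, 21.4, 47.0 and 108 CPM in CDAHFD control livers. It had 90.8, 236, 173 and 219 CPM in FPC mild livers and 550.0, 662, 386 and 1602 CPM in FPC control livers. The FPC control livers were above all others. Its diet difference of 2.82 ± 0.74 (adjusted p = 0.0353) passed in 6 of the 16 fits without 1 library, those without CDAHFD mild mouse 3, CDAHFD control mouse 4, FPC mild mouse 2 and FPC control mice 1, 2 and 3. The count of 5 positive calls was 1 to 3 in 12 of these 16 fits, and held at 4 or 5 without CDAHFD mild mouse 3, FPC control mouse 2 or 3, or FPC mild mouse 4. The negative call, was Cyp2d9, and the negative count was 0 without CDAHFD mild mouse 2 or 3, FPC mild mouse 2 or 4, or FPC control mouse 1 or 2. It was 2 without CDAHFD control mouse 1 or 3, FPC mild mouse 1 or FPC control mouse 4, and 3 without CDAHFD control mouse 2. DESeq2 called 8 positive and 3 negative.

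Genes with sex-biased expression in liver follow the pattern of growth hormone release. Of 20 male-biased genes, 14 fell under the CDAHFD and 11 under FPC, and 3 had a negative diet difference (Mup21, Hsd3b5 and Cyp2d9; median -1.557). Hsd3b5, a male-specific steroid dehydrogenase gene, had 3.28, 4.82, 15.5 and 2.58 CPM in CDAHFD mild livers and 511, 835, 439 and 314 CPM in CDAHFD control livers, and 65.8, 20.4, 25.9 and 13.3 CPM in FPC mild livers and 360.3, 364, 477 and 579.8 CPM in FPC control livers. Both diets' mild livers lay below all control livers. That count of 3 was 1 without CDAHFD mild mouse 2 or 3 or FPC control mouse 1 or 2, and 5 without FPC control mouse 4. Of 15 female-biased genes, 5 had a positive diet difference and 0 a negative one. Cyp2b9, a female-biased P450 whose reads may be shared with Cyp2b13, had 375, 199, 67.1 and 517 CPM in CDAHFD mild livers and 0.381, 4.40, 3.58 and 4.05 CPM in CDAHFD control livers. It had 8.05, 11.9, 58.5 and 123 CPM in FPC mild livers and 196, 43.4, 1.91 and 2.07 CPM in FPC control livers. Its FPC values spread widely in both groups. Its diet difference of 6.82 ± 1.85 (adjusted p = 0.0414) passed only in the fits without CDAHFD mild mouse 3, FPC mild mouse 4 or FPC control mouse 3 or 4. Without any 1 of the other 12 libraries its adjusted p was up to 0.12. The count of 5 female-biased genes was 0 without FPC control mouse 1 and 1 to 3 without any other single library except CDAHFD mild mouse 3, without which it was 4.

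Macrophage genes rose under both diets, and 9 of 17 recruited macrophage markers rose further under the CDAHFD. Of the 17, 16 rose under each diet, with a median change of 4.087 log2 under the CDAHFD and 2.667 under FPC. Their summed level was 907 to 1391 CPM in CDAHFD mild livers and 33.0 to 66.5 CPM in CDAHFD control livers, against 223 to 247 CPM in FPC mild livers and 32.9 to 35.5 CPM in FPC control livers. Between the control groups 0 of the 17 were called by edgeR, 4 had an unadjusted p under 0.05 and 2 were called by DESeq2, and 13 were higher in CDAHFD mild than in FPC mild livers. The 9 with a positive diet difference ranged from 1.24 to 3.70. They were Mmp12, Atp6v0d2, Gpnmb, Clec4d, Itgax, Itgam, Lgals3, Cd300lb and Lpl.

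A promoter window of Mmp12, the called list member with the largest diet difference, is shown because macrophage genes are read through sites of the factor PU.1. Mmp12 has 2 windows, and the one with the most matches was taken. Capitals mark a match to GAGGAAGT, here on the opposite strand and so printed as its reverse complement.
Mmp12 (chr9:7344147-7344446, plus strand): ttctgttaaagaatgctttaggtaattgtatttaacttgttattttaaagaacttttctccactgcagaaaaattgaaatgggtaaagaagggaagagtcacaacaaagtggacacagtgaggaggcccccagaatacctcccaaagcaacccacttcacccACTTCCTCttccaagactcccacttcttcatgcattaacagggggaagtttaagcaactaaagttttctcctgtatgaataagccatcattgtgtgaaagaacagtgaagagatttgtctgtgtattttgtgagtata
The match begins 88 bases before the start. The letters were found on either strand in 3.2% of 32851 promoter windows and in 3 of the 14 list members with a window (Mmp12, Ly6c2 and Spp1), of which Mmp12 was called. The window of Gpnmb, also called, held no match. A gene counted if any of its windows matched, so that count cannot be set against the share of windows. A match is no evidence of binding.

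Gpnmb, a lysosomal glycoprotein of lipid-loaded macrophages, had 256, 252, 384 and 286 CPM in CDAHFD mild livers and 0.714, 0.662, 0.251 and 0.549 CPM in CDAHFD control livers. It had 27.1, 29.0, 22.7 and 25.4 CPM in FPC mild livers and 0.0514, 0.699, 0.325 and 0.370 CPM in FPC control livers. The CDAHFD mild livers were above the FPC mild livers, and the control livers of both studies were under 1 CPM. Its diet difference was 2.96 ± 0.49 (adjusted p = 0.00136), from changes of 9.03 under the CDAHFD and 6.07 under FPC. Mmp12, a macrophage elastase that cuts elastin, had 136, 114, 187 and 135 CPM in CDAHFD mild livers and 0.238, 0.142, 0.251 and 0.211 CPM in CDAHFD control livers. It had 18.2, 13.6, 14.1 and 8.93 CPM in FPC mild livers and 0.206, 0.221, 0.243 and 0.444 CPM in FPC control livers, and its diet difference was 3.70 ± 0.56 (adjusted p = 0.000648). Atp6v0d2, a subunit of the proton pump that acidifies lysosomes, had 138, 104, 177 and 116 CPM in CDAHFD mild livers and 2.48, 1.28, 4.14 and 0.928 CPM in CDAHFD control livers. It had 16.3, 15.1, 16.4 and 16.8 CPM in FPC mild livers and 3.80, 3.24, 2.88 and 2.74 CPM in FPC control livers, and its diet difference was 3.62 ± 0.40 (adjusted p = 5.31e-05).

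Itgax, which encodes the integrin CD11c, had 91.8, 81.0, 125 and 105 CPM in CDAHFD mild livers and 2.10, 1.61, 2.39 and 1.73 CPM in CDAHFD control livers. It had 24.9, 25.6, 25.3 and 26.3 CPM in FPC mild livers and 2.11, 2.10, 1.58 and 1.48 CPM in FPC control livers. The diet difference was 1.90 ± 0.21 (adjusted p = 4.84e-05). Myo5a, an actin motor gene that is on no list and had the lowest p of all positive diet differences, had 150.4, 124, 178 and 157 CPM in CDAHFD mild livers and 7.10, 5.06, 7.97 and 7.55 CPM in CDAHFD control livers. It had 45.2, 39.4, 33.1 and 38.0 CPM in FPC mild livers and 9.30, 7.47, 6.90 and 6.07 CPM in FPC control livers, and its diet difference was 2.08 ± 0.22 (adjusted p = 3.24e-05). Tnfaip3, which encodes the NF-kB inhibitor A20, had a diet difference of 1.19 ± 0.19 (adjusted p = 0.00102). Levels were 35.1, 30.7, 29.3 and 33.3 CPM in CDAHFD mild livers and 3.91, 5.25, 5.53 and 5.53 CPM in CDAHFD control livers. FPC mild livers had 15.7, 17.2, 15.7 and 16.2 CPM, and FPC control livers 7.20, 4.93, 5.52 and 5.70 CPM. Tnfaip3 is on the list of NF-kB subunits and targets and not on the macrophage lists. In hepatocyte nuclei Tnfaip3 reached 26.7 CPM in CDAHFD mild and 12.6 CPM in FPC mild mice, and Itgax 10.2 and 5.31 CPM. The Tnfaip3 diet difference in whole liver minus that in hepatocyte nuclei was -0.04 log2. Which cells carried its change was not tested. Lpl, a lipase gene of macrophages and adipocytes, had a diet difference of 1.24 ± 0.31 (adjusted p = 0.025), which was lost without CDAHFD mild mouse 3 or FPC mild mouse 4.

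Other markers of monocyte-derived macrophages had no called diet difference. The lipid receptor gene Trem2 had 15.0, 21.1, 26.2 and 23.6 CPM in CDAHFD mild livers and 0.429, 0.378, 0.126 and 0.717 CPM in CDAHFD control livers, and 3.40, 5.70, 5.04 and 6.44 CPM in FPC mild livers and 0.154, 0.221, 0.365 and 0.148 CPM in FPC control livers. Its mild groups differed by 2.07 log2 (adjusted p = 5.38e-06), and its diet difference of 1.19 ± 0.55 did not pass (adjusted p = 0.23). Spp1, which encodes osteopontin, rose by 1.70 under the CDAHFD and 2.13 under FPC, with a diet difference of -0.42 ± 0.35 (adjusted p = 0.53). The chemokine receptor genes Ccr2 (-0.001, adjusted p = 0.999) and Cx3cr1 (-0.27, adjusted p = 0.661) rose under both diets and had no called diet difference.

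Of 16 tested markers of resident Kupffer cells, 2 had a negative diet difference and 0 a positive one, with a median of -0.339. Timd4, a receptor for dying cells that marks long-lived Kupffer cells, had 4.72, 7.08, 3.35 and 5.25 CPM in CDAHFD mild livers and 24.9, 21.3, 30.1 and 21.4 CPM in CDAHFD control livers. It had 45.3, 16.6, 27.3 and 12.7 CPM in FPC mild livers and 28.9, 17.4, 13.7 and 18.6 CPM in FPC control livers. The CDAHFD mild livers were below every other library, and FPC mild and control livers overlapped. Its diet difference was -2.64 ± 0.47 (adjusted p = 0.00266). Clec4f, another Kupffer marker, had a diet difference of -1.18 ± 0.37 that did not pass (adjusted p = 0.0723). The scavenger receptor gene Marco, which takes up bacteria and particles, had the list's highest value, 2.95 ± 1.07, which did not pass (adjusted p = 0.121). In all 4 members lay above 0 and 12 below, and 3 positive and 3 negative ones had an unadjusted p under 0.05. DESeq2 called 4 members, 1 of them positive. Without CDAHFD control mouse 3 there were 2 positive calls, and without FPC mild mouse 1 or FPC control mouse 3 there was 1. The other called member was the haemoglobin scavenger receptor gene Cd163. The call of Cd163 was lost without CDAHFD mild mouse 1, 3 or 4, CDAHFD control mouse 4, FPC mild mouse 1 or 2, or FPC control mouse 3, which left 1 call. The summed Kupffer level overlapped among all groups, at 1003 to 1479 CPM in CDAHFD mild, 952 to 1581 in CDAHFD control, 813 to 1817 in FPC mild and 929.6 to 1376 in FPC control livers.

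**Figure D3:**
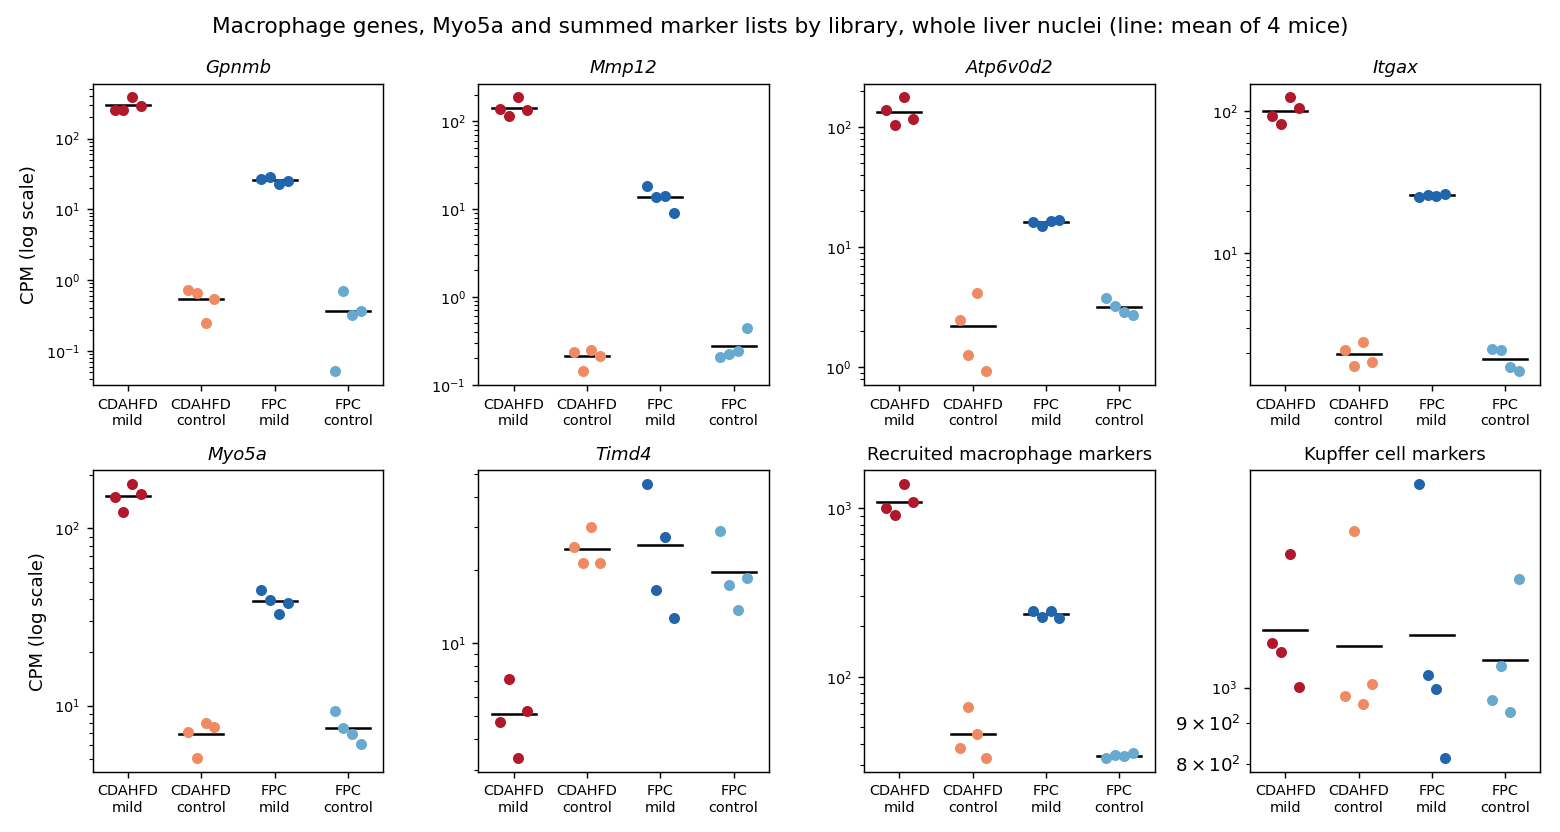
CPM on a log axis in each whole-liver library of the 4 groups for 5 macrophage genes, for Myo5a and for the summed recruited macrophage and Kupffer marker lists; points are mice and lines are means of 4. CDAHFD mild livers are highest for Gpnmb, Mmp12, Atp6v0d2, Itgax and Myo5a and lowest for Timd4, and summed recruited markers are 907 to 1391 CPM against 223 to 247 CPM in FPC mild livers.

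Fibrosis genes and most other cell types showed few or no called diet differences. Most matrix genes and activated stellate cell markers lay below 0, and most lymphocyte markers lay above 0. Of 39 collagen and matrix genes, 26 rose under the CDAHFD and 35 under FPC, while 1 had a positive diet difference (Mmp12) and 1 a negative one (Col27a1, a fibrillar collagen gene; -2.12 ± 0.41, adjusted p = 0.00491). The diet difference lay above 0 for 13 of the 39 and below 0 for 26, with a median of -0.263. Col1a1, the main collagen of scar, had 14.6, 20.5, 27.1 and 23.4 CPM in CDAHFD mild livers and 1.57, 5.29, 6.72 and 5.44 CPM in CDAHFD control livers, and 20.4, 13.2, 25.8 and 25.8 CPM in FPC mild livers and 2.72, 2.80, 5.19 and 4.52 CPM in FPC control livers. Its mild groups overlapped and its diet difference was -0.31 ± 0.50 (adjusted p = 0.778). Of 18 stellate cell markers, Colec11 and Ntm had a negative diet difference, and of 11 markers of activated stellate cells 0 were called by edgeR, with a median of -1.026. In that list 10 lay below 0 and 1 above. An unadjusted p under 0.05 was found for 4, all of them negative, and 1 was called by DESeq2. Summed markers of activated stellate cells reached 107 to 159 CPM in CDAHFD mild livers and 31.6 to 71.2 CPM in CDAHFD control livers, and 102 to 203 CPM in FPC mild livers and 35.3 to 55.0 CPM in FPC control livers. T and NK cell markers rose under both diets, 18 of 20 under the CDAHFD and 15 of 20 under FPC, and had no called diet difference. Their diet difference lay above 0 for 18 of 20, with a median of 0.538 against -0.035 over all genes. Of 11 B and plasma cell markers 3 had a positive diet difference (Fcrla, Cd22 and Pax5), a count that was 0 without CDAHFD mild mouse 3, FPC control mouse 1 or FPC mild mouse 3, and 1 without FPC mild mouse 4. Of these 11, 10 lay above 0 and 1 below, with a median of 0.822. CDAHFD minus FPC, their median was -0.619 log2 between the controls and 0.119 between the mild groups. In CDAHFD mild livers 2 were higher and 1 lower than in FPC mild livers. Summed B and plasma cell markers overlapped there, at 176 to 186 CPM in CDAHFD mild and 169 to 338 CPM in FPC mild livers.

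Cell division genes rose under both diets, 22 of 25 under the CDAHFD and 24 of 25 under FPC. Of these 25, 5 had a positive diet difference and 0 a negative one (Cenpf, Cdk1, Cenpe, Tpx2 and Mki67; median 0.467). Mki67, a marker of dividing cells, had 81.5, 55.4, 58.5 and 62.4 CPM in CDAHFD mild livers and 5.43, 5.34, 4.58 and 3.16 CPM in CDAHFD control livers, and 39.4, 49.2, 38.8 and 35.7 CPM in FPC mild livers and 7.35, 4.16, 4.87 and 5.03 CPM in FPC control livers. Its diet difference of 0.87 ± 0.25 (adjusted p = 0.0475) passed in 5 of the 16 fits without 1 library, those without CDAHFD mild mouse 2, CDAHFD control mouse 1 or 2, FPC mild mouse 2 or FPC control mouse 2. The count of 5 was 3 without CDAHFD mild mouse 1, 3 or 4, CDAHFD control mouse 3 or 4, FPC mild mouse 1 or 3, or FPC control mouse 1, 3 or 4.

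The CDAHFD lacks choline, and choline-pathway genes had no called diet difference in whole liver by edgeR. Of 25 genes of phospholipid, choline and methionine metabolism, 1 rose and 15 fell under the CDAHFD, 2 rose and 11 fell under FPC, and 0 had a called diet difference by edgeR (median -0.231). Of these 25, 5 had an unadjusted p under 0.05 and 1 was called by DESeq2. The mild groups differed for 4, all lower in CDAHFD mild than in FPC mild livers, and the control groups for 2, both lower in CDAHFD control livers. In hepatocyte nuclei 2 had a positive and 3 a negative diet difference. Pemt, which makes phosphatidylcholine by methylation, fell by 0.93 log2 under the CDAHFD and by 0.90 under FPC, with a diet difference of -0.02 ± 0.39 (adjusted p = 0.984). Hnf4a, the master factor of hepatocyte identity, also fell under both diets and had a diet difference of -0.04 ± 0.21 (adjusted p = 0.951). A p that misses the threshold does not show equal change, and the standard errors give the room that is left.

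The gene with the lowest p of all was on no list. Trhde, which encodes an ectoenzyme that degrades thyrotropin-releasing hormone (chr10:114398821-114801370), had 1.68, 1.59, 1.27 and 1.63 CPM in CDAHFD mild livers and 159.8, 130.1, 90.3 and 154 CPM in CDAHFD control livers. It had 47.8, 50.9, 38.2 and 31.9 CPM in FPC mild livers and 255, 188, 229 and 165 CPM in FPC control livers. It fell under both diets, by 6.43 log2 under the CDAHFD and by 2.31 under FPC, and its diet difference was -4.12 ± 0.30 (adjusted p = 9.14e-08). All 4 CDAHFD mild libraries were below every other library. Gpd2, the mitochondrial glycerol-3-phosphate dehydrogenase gene, had 102, 91.0, 105 and 94.6 CPM in CDAHFD mild livers and 381, 358, 279 and 332 CPM in CDAHFD control livers, and 217, 161, 179.7 and 177 CPM in FPC mild livers and 159, 174, 116 and 169 CPM in FPC control livers. It fell under the CDAHFD without a call under FPC (0.25, adjusted p = 0.282), for a diet difference of -2.03 ± 0.26 (adjusted p = 0.000117), and its control groups also differed, by 1.13 log2 (adjusted p = 0.000958).

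Clec2h, a C-type lectin-like gene, fell under FPC, and its control groups also lay apart. It had 59.5, 92.8, 42.8 and 28.8 CPM in CDAHFD mild livers and 19.3, 35.6, 20.9 and 3.29 CPM in CDAHFD control livers. It had 6.22, 0.950, 4.79 and 0.872 CPM in FPC mild livers and 60.0, 39.7, 97.9 and 69.4 CPM in FPC control livers. Under FPC it fell by 4.32 log2 (adjusted p = 0.00195). The FPC mild livers were below every other library apart from CDAHFD control mouse 4, whose value lay within their range. All 4 FPC control livers were above all 4 CDAHFD control livers, and CDAHFD mild and control livers overlapped. The diet difference was 5.83 ± 1.32 (adjusted p = 0.0168). Stac2, an adaptor gene known from muscle, had 4.14, 5.22, 8.88 and 5.60 CPM in CDAHFD mild livers and 0.0953, 0.331, 0.126 and 0.0844 CPM in CDAHFD control livers. It had 0.248, 0.475, 0.306 and 0.249 CPM in FPC mild livers and 0.103, 0.663, 0.122 and 0.148 CPM in FPC control livers. It rose by 5.18 log2 under the CDAHFD (adjusted p = 1.77e-08) and had no call under FPC (0.09, adjusted p = 0.917), and its diet difference was 5.09 ± 0.79 (adjusted p = 0.00081). Mamdc2, a secreted proteoglycan gene, had 121, 99.5, 195 and 128 CPM in CDAHFD mild livers and 20.5, 21.6, 28.6 and 19.3 CPM in CDAHFD control livers, and 31.0, 24.7, 27.0 and 26.9 CPM in FPC mild livers and 24.6, 22.6, 15.9 and 16.6 CPM in FPC control livers, for a diet difference of 2.14 ± 0.26 (adjusted p = 0.000117).

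The captured hepatocyte nuclei of the same 16 mice gave a readout that the whole-liver fit did not use, although both libraries come from the same animals. In them the diet difference was positive for 772 genes (5.59% of 13808 tested) and negative for 917 (6.64%). Of the 722 genes called in whole liver, 706 were tested in hepatocyte nuclei. Of those, 352 were called in the same direction and 1 in the opposite one. These shared genes were 48.8% of the whole-liver calls and 20.8% of the 1689 hepatocyte calls.

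In hepatocyte nuclei Scd1 had a diet difference of -7.07 ± 0.71 (adjusted p = 2.19e-05) and Msmo1 one of 3.0 ± 0.45 (adjusted p = 0.000828). Of the 25 cholesterol synthesis genes 15 were positive and 0 negative in hepatocyte nuclei, and of the 21 fatty acid synthesis genes 0 were positive and 8 negative (median -1.575). Of the 15 genes of VLDL assembly 0 were positive and 3 negative, but the median was 0.108 there against -0.749 in whole liver. Of 16 recruited macrophage markers tested there, 3 were positive and 0 negative. Gpnmb in hepatocyte libraries was at 16.5, 16.6, 27.6 and 17.3 CPM in CDAHFD mild mice, far under its 252 to 384 CPM in whole liver. Its diet difference there was 2.44 ± 1.24 (adjusted p = 0.194).

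Whether the diet difference itself differed between whole liver and hepatocyte nuclei was tested directly. It was higher in whole liver for 14 genes (0.0957% of 14627) and lower for 1 (0.00684%). With the mouse as a block, 324 genes were higher and 137 lower. That block uses the numbers of CDAHFD control mice 1 and 2 as labelled. With the 2 numbers crossed in the hepatocyte libraries it gave 832 higher and 431 lower genes, and without both mice 645 and 273. Lepr, the leptin receptor gene, had a diet difference of -1.40 in whole liver and -4.41 in hepatocyte nuclei, which differed by 3.06 ± 0.64 (adjusted p = 0.0315). Arhgap10, a GTPase-activating protein gene, had one of 0.12 in whole liver and -2.31 in hepatocyte nuclei, which differed by 2.48 ± 0.43 (adjusted p = 0.00731). Mki67 was the gene that was lower, with 0.87 in whole liver and 4.32 in hepatocyte nuclei (-3.40 ± 0.68, adjusted p = 0.0242). In hepatocyte nuclei it had 66.6, 72.8, 57.0 and 71.0 CPM in CDAHFD mild mice and 0.227, 0.233, 0.312 and 0.135 CPM in CDAHFD controls. It had 13.8, 47.9, 27.1 and 32.5 CPM in FPC mild mice and 1.83, 0.953, 2.50 and 2.88 CPM in FPC controls. The CDAHFD control values rest on few reads, so the size of the 4.32 is uncertain. Of 126 genes, those named by rule and Hmgcs1, Mki67 was called without the block, 6 with it and 17 with the crossed one. With the block as labelled the diet difference was higher in whole liver for 2 and lower for 4. The higher ones were Lpl (1.24 in whole liver and -0.92 in hepatocyte nuclei, adjusted p = 0.00989) and Myo5a (0.0438). The lower ones were Crp (0.00971), Abcc3 (0.0233), Cyp2a4 (0.026) and Mki67. With the crossed block it was higher in whole liver for 4 genes and lower for 13. Among those added, Atp6v0d2 (adjusted p = 0.0111) and Elovl5 (0.00556) were higher, and Apoa4 (0.0168), Abcg8 (0.0359) and Cyp2a5 (0.000179) were lower. Scd1, Msmo1, Gpnmb, Mmp12 and Itgax passed in none of the 3 fits.

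**Figure D4:**
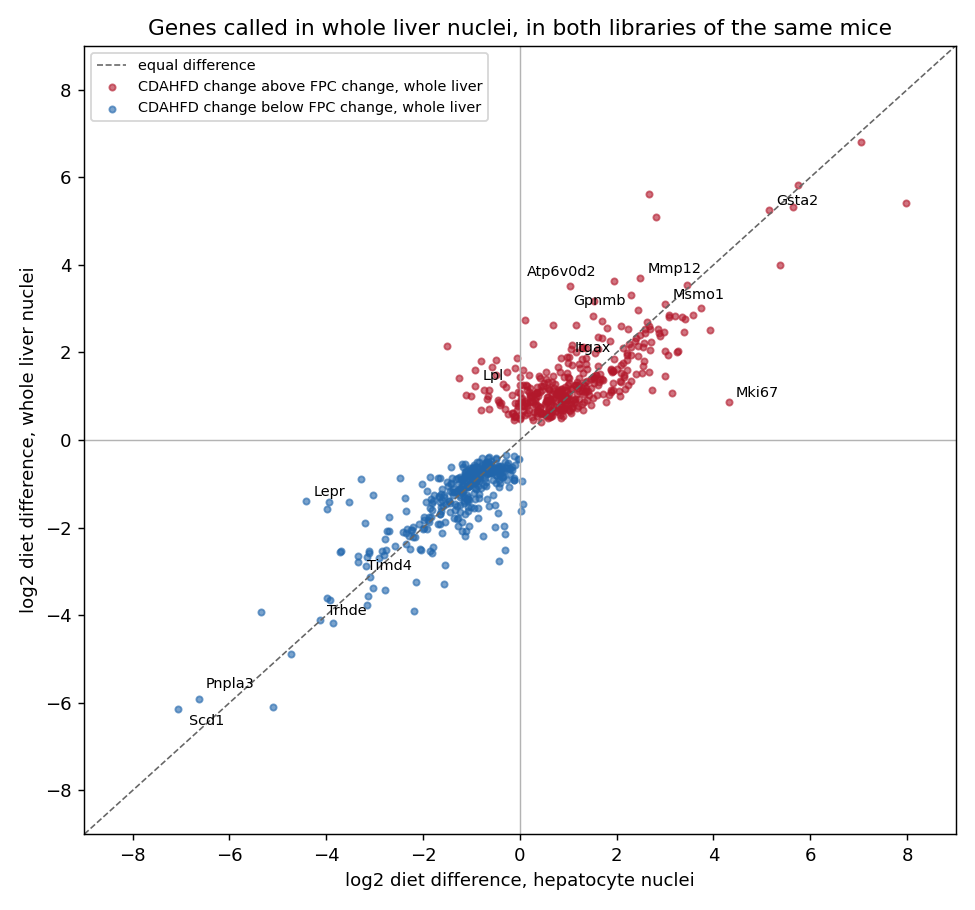
Diet difference (log2) in whole-liver nuclei against that in hepatocyte nuclei of the same mice, for the called whole-liver genes that were tested in both; the dashed line marks equality. Of the 706 genes plotted, Scd1, Pnpla3 and Trhde are low and Gsta2 and Msmo1 high in both, while Mki67 is larger in hepatocyte nuclei.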

How the data were processed

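Nuclei of whole liver, and hepatocyte nuclei captured from the same mice, were sequenced from 50 to 100 ng of total RNA with 50-base paired reads, per the labels' protocols. The deposited table holds whole-number read counts per RefSeq transcript identifier for 44 libraries. The submitters' processing notes name STAR 2.4.2a, DESeq2 1.24.0 and the build mm10, and the counting tool and its strand setting are not given in the sources used here. The authors' deposited tables of log2 fold changes and adjusted p-values were used only for gene symbols and coordinates; the count length equals the gene length for 94.668% of their genes, so intronic reads were counted. Of 20105 identifiers, 13147 took a symbol from those tables and 6879 from RefSeq, and 79 had none. The replicates are separate mice.

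The 22 whole-liver libraries (6 groups, advanced disease included, so that all share an estimate of the spread) were fitted with edgeR 4.0.16 (R 4.3.3; TMM scaling, filterByExpr by group, robust quasi-likelihood test) and p-values were adjusted by Benjamini-Hochberg over all 14413 genes tested, with a threshold of 0.05. CPM values are scaled by the same TMM factors. Hepatocyte libraries were fitted likewise, and all 44 libraries together for the difference between both kinds. Both libraries of a mouse share its number, and in 14 of 16 mice they deviated from their groups together (correlation over 0.1). The script was tested on simulated data. The gene lists, the named genes and the comparison itself were chosen with earlier results of these data known. Named genes were the 10 largest diet differences each way and the 5 lowest p each way with at least 1 mean CPM in a group, up to 4 called members of each list, the 5 largest each way that were called in opposite directions under the diets, and a list of steatohepatitis genes named whatever their values; Hmgcs1 was added after its values were seen, and so were genes named only as members of a counted list. Alternatives were RLE scaling, DESeq2 1.42.0, no filter, a stricter filter of 1 CPM in 4 libraries, the 16 libraries alone, a 2-fold minimum, each library left out, and the mouse as a block. Some named genes are not reported here.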

Additional observations from a re-analysis of the deposited data

Results flagged for a closer look

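In 6 of 104 groups of 4 mice, over 26 genes shown by library, 1 mouse stood far from the other 3 by Dixon's test, which flags about 1 in 20 groups by chance. FPC mild mouse 1 had 991 CPM of Acaca (575 to 640.4 in the others). FPC mild mouse 2 had 76.7 CPM of Hmgcs1 (51.7 to 55.9 in the others). CDAHFD mild mouse 3 had 25.1 CPM of Sqle (15.5 to 16.9 in the others). The remaining 3 are at low counts: FPC control mouse 4 had 0.444 CPM of Mmp12 (0.206 to 0.243), CDAHFD control mouse 2 had 0.331 CPM of Stac2 (0.0844 to 0.126) and FPC control mouse 2 had 0.663 CPM of Stac2 (0.103 to 0.148). The calls of Acaca, Sqle, Mmp12 and Stac2 were kept without any 1 library, and that of Hmgcs1 was kept without FPC mild mouse 2.

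For 15 genes the diet difference itself differed between whole liver and hepatocyte nuclei by the edgeR test of that difference (adjusted p = 0.00731 to 0.0351). Each is given as whole liver minus hepatocyte nuclei in log2. It was 2.48 for Arhgap10, 1.54 for Mitf, 2.49 for Astn2, 2.45 for Gpc6, 1.25 for Zswim6, 1.47 for Lrp12 and 1.32 for Tmem165. It was 2.65 for Prrx1, 0.99 for Rnf149, 2.64 for Igf2bp2, 3.06 for Lepr, 1.20 for Ppm1h, 0.71 for Gna13 and 2.0 for Srgap3. It was -3.40 for Mki67. All 15 also passed with the mouse as a block (adjusted p = 1.38e-05 to 0.0258). In hepatocyte nuclei the 14 positive genes had negative diet differences, from -4.41 for Lepr to -0.48 for Gna13. In whole liver 4 of the 15 were called by themselves, Mki67 at 0.87, Mitf at 0.68, Gpc6 at -0.90 and Lepr at -1.40.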

How the results depend on the processing

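Under every alternative run, no called direction of a named gene reversed. A 2-fold minimum left 252 positive and 188 negative diet differences, DESeq2 gave 636 and 484, RLE scaling 439 and 277, no filter 340 and 272, the stricter filter 419 and 322, and the 16 libraries alone 298 and 259. Of the 722 calls, DESeq2 shared 721, RLE scaling 665, the stricter filter 698, no filter 608 and the 16 libraries alone 518. Leaving out 1 library each gave 243 to 430 positive and 169 to 367 negative calls, and the fewest shared were 415 without CDAHFD mild mouse 3 and 423 without FPC mild mouse 3. The cause of these moves was not tested.

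With a 2-fold minimum the CDAHFD raised 2625 and lowered 913 genes, FPC raised 2309 and lowered 491, the controls differed for 49 higher and 138 lower, and the mild groups for 324 higher and 299 lower. For genes higher in CDAHFD control than in FPC control livers, the 16 libraries alone gave 94 and DESeq2 283. Leaving out 1 library gave 3756 to 4154 higher and 3383 to 4000 lower genes under the CDAHFD, 3240 to 3642 and 2093 to 2699 under FPC, 82 to 219 and 183 to 315 between the controls, and 705 to 1109 and 603 to 1094 between the mild groups. The 2 comparisons between control groups and between mild groups, and the 2 crossed or shortened blocks below, were chosen after seeing the data.

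No paired analysis was possible for the diet difference itself because mild and control mice share no animal numbers. For the difference between whole liver and hepatocyte nuclei, the replicate block of the mouse gave 324 higher and 137 lower genes, against 14 and 1 without it. With the hepatocyte numbers of CDAHFD control mice 1 and 2 crossed it gave 832 and 431, and without both mice 645 and 273. RLE scaling gave 14 and 2.

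Of the 125 genes named by rule, 92 were called. Of these, 56 kept the call without any 1 library, 36 lost it at least once and 22 lost it in 8 or more of the 16 fits. Read depth limits genes under about 1 CPM, whose fold changes rest on few reads. Examples are Gpnmb, Mmp12 and Stac2 in control livers, and Mki67 in hepatocyte nuclei of CDAHFD control mice.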

Other observations

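Of 22 genes of lipid droplets and fatty acid uptake, 2 were higher and 8 lower in CDAHFD mild than in FPC mild livers, while 1 had a positive diet difference (Lpl, 1.24) and 1 a negative one (the monoglyceride lipase gene Mgll, -1.23). The positive count was 0 without CDAHFD mild mouse 3 or FPC mild mouse 4 and 2 without FPC mild mouse 1 or FPC control mouse 3 or 4, and the negative count was 3 without CDAHFD control mouse 4. Over the list 7 members lay above 0 and 15 below, with a median of -0.491 log2. An unadjusted p under 0.05 was found for 3 positive and 10 negative ones. Cidea, which fuses lipid droplets, had 0.0410, 0.0443, 0.127 and 0 CPM in CDAHFD mild livers and 0.0953, 0.0945, 0 and 0 CPM in CDAHFD control livers, and 13.2, 3.87, 3.72 and 4.49 CPM in FPC mild livers and 0.360, 0.258, 0.0406 and 0 CPM in FPC control livers. Its mild groups differed by -6.80 ± 0.80 log2 (CDAHFD minus FPC, adjusted p = 7.22e-06), and its diet difference of -5.06 ± 2.07 had an adjusted p of 0.173, with CDAHFD values near 0 in both groups. Its relative Cidec had 6.11, 8.36, 11.2 and 6.20 CPM in CDAHFD mild livers and 0.238, 0.567, 0.314 and 0.127 CPM in CDAHFD control livers, and 27.3, 23.5, 27.7 and 28.5 CPM in FPC mild livers and 0.977, 1.14, 0.568 and 0.444 CPM in FPC control livers. It rose by 4.67 log2 under the CDAHFD and 5.04 log2 under FPC, its mild groups differed by -1.75 (adjusted p = 2.59e-05), and its diet difference was -0.36 ± 0.50 (adjusted p = 0.741). Mogat1, an acyltransferase of triglyceride synthesis, differed between the mild groups by -3.23 log2 (adjusted p = 1.83e-05) and between the controls by -3.92 log2 (adjusted p = 0.000531), so that its diet difference was 0.68 ± 0.75 (adjusted p = 0.657).

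Interferon and antigen presentation genes rose under both diets, 19 of 29 under the CDAHFD (median 1.093 log2) and 22 of 29 under FPC (median 1.711 log2). Their diet difference lay below 0 for 24 of 29 and above 0 for 5, with a median of -0.349 log2. An unadjusted p under 0.05 was found for 7 negative and 2 positive ones. Between the mild groups 0 of the 29 were called. Irf1 had the list's 1 called diet difference (1.02 ± 0.27, adjusted p = 0.0323), which was lost without CDAHFD mild mouse 1, CDAHFD control mouse 4, FPC mild mouse 3 or 4, or FPC control mouse 1 or 3. Of 18 NF-kB subunits and targets, 14 rose under the CDAHFD and 12 rose and 1 fell under FPC, and 7 were higher in CDAHFD mild than in FPC mild livers. Of 32 complement and coagulation genes, 25 fell under the CDAHFD and 22 under FPC, and 2 had a negative and 0 a positive diet difference. Of the 16 fits without 1 library, 12 gave 1 negative call, that without FPC mild mouse 3 gave 0, and the count stayed at 2 or 3 without CDAHFD control mouse 4, FPC mild mouse 1 or FPC control mouse 4. In hepatocyte nuclei the list had 5 positive and 0 negative calls.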
